A study of Homo sapiens with 18 samples.

Results

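The genes with the largest mean falls in RNA level, among those that RSL3 lowered in both MM1R and MM1S cells, were SPRY1, FRMD6, SOX2, POM121L1P and LRRC14B, 5 of the 14281 genes tested and of the 43735 genes in the count table. RNA sequencing covered 6 groups of 3 libraries. MM1R and MM1S are human multiple myeloma cell lines, MM1S being sensitive and MM1R resistant to glucocorticoids, and each was left untreated, given 5 µM RSL3 for 3 h, or given 2 µM of ferrostatin-1 (Fer-1) for 2 h before the same RSL3 treatment. RSL3 induces ferroptosis, a form of iron-dependent cell death by lipid peroxidation, by acting on the lipid peroxidase GPX4, and Fer-1 traps the lipid radicals. Each library of a group came from another passage of the line, passages 4, 6 and 7 of MM1R cells and passages 16, 22 and 23 of MM1S cells. Cells given Fer-1 alone were not analysed here, so a group with Fer-1 differs from the untreated group by both compounds.

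The genes were chosen by their RSL3 and untreated libraries. They passed a false discovery rate (FDR) of 0.05 with a more than 2-fold change in both lines, their RSL3 libraries lay below their untreated libraries, and their mean log2 fold changes over the lines were the 5 lowest. The falls with RSL3 are therefore a description of the choice and carry no test. The Fer-1 and RSL3 libraries were not among the groups compared for it. All 18 libraries shared the estimate of spread, however, so those with Fer-1 entered the FDR. With these thresholds in the quasi-likelihood test of edgeR, whose p-values were adjusted by Benjamini-Hochberg, 20 genes (0.14%) were lower with RSL3 in MM1R cells and 37 (0.259%) in MM1S cells. Only 9 genes (0.063%) were lower in both lines, against 96 (0.672%) that were higher in both. LRRC14B was the last gene inside the choice, with log2 fold changes of -1.20 in MM1R and -1.14 in MM1S cells, and HRH2, a histamine receptor gene, was the next outside it, with -1.12 and -1.20.

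The 5 genes belong to different families. SPRY1 encodes a Sprouty protein, which dampens receptor tyrosine kinase signalling to ERK and is itself induced by that pathway, forming a feedback loop. FRMD6 encodes a FERM domain protein that acts upstream of the Hippo kinases, which restrain the coactivators YAP and TAZ. SOX2 encodes an HMG-box transcription factor best known from pluripotent cells and neural progenitors. POM121L1P is a transcribed pseudogene related to POM121, a membrane protein of the nuclear pore. LRRC14B encodes a leucine-rich repeat protein related to LRRC14.

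In the hg19 annotation, SPRY1 lies at chr4:124317950-124324915 and FRMD6 at chr14:51955818-52197445, both on the plus strand. SOX2 is a gene of 1 exon at chr3:181429713-181432224, also on the plus strand. POM121L1P is a gene of 1 exon on the minus strand at chr22:22984722-22986556, and LRRC14B lies on the plus strand at chr5:191610-196449. All 5 are on different chromosomes, so none is a neighbour of another.

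Because the 5 genes fell together, the DNA before their start sites is shown, for reading beside the falls. RefSeq promoters (GRCh38.p14) were given for 4 of the 5 genes, POM121L1P having none, and each matched 1 place in hg19, from which the coordinates are taken. The letters are the 250 bases before the start site on the plus strand, 222 for FRMD6, where the annotated gene begins before the RefSeq start. Capitals mark matches to the motifs searched, and in LRRC14B a tandem repeat.
SPRY1 (chr4:124317700-124317949): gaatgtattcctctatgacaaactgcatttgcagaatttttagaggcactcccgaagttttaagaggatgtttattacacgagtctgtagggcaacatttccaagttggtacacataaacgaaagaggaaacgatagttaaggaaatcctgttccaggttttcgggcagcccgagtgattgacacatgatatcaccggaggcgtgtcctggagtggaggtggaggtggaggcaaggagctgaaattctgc
FRMD6 (chr14:51955596-51955817): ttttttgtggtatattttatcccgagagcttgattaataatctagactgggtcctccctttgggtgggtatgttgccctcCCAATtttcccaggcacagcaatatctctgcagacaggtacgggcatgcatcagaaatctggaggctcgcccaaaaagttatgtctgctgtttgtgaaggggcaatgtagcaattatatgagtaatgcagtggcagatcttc
SOX2 (chr3:181429463-181429712): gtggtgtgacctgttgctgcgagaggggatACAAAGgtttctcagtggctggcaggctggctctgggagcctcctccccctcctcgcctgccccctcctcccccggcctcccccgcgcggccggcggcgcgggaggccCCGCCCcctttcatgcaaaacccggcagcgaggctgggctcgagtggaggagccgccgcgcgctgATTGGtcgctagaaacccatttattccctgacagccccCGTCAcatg
LRRC14B (chr5:191360-191609): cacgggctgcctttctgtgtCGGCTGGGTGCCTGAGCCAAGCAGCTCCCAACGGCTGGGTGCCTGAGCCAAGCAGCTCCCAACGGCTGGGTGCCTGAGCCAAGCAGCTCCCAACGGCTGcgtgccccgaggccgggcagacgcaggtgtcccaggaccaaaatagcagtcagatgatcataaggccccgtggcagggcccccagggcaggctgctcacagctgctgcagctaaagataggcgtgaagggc

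The 4 promoters differed in base composition. GC content was 45.6% in SPRY1 and 43.6% in FRMD6, below the median of 58% over all RefSeq promoters, and 68.8% in SOX2 and 65.6% in LRRC14B, above it. The SOX2 promoter held 20 CpG sites, LRRC14B 11, SPRY1 8 and FRMD6 3, beside a median of 11 over all promoters. The LRRC14B window holds a unit of 31 bases repeated over 99 bases, and 0.276% of all promoters had a run of repeated letters as long. A second SPRY1 start site inside the gene had a GC content of 68% and 24 CpG sites, and lies in SPRY1 exons.

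The 10 motifs were searched on both strands, and no motif was in every window. The CCAAT box (CCAAT) was in FRMD6 and SOX2 and in 32.01% of all promoters. The GC box (GGGCGG) was in SOX2 and before the second SPRY1 start, and in 42.64% of all promoters. SOX2 also held the SOX site ACAAAG, found in 13.72% of promoters, and the CRE core TGACG, found in 21.22%. The ETS site CCGGAAG, found in 8.517% of promoters, stood before the second SPRY1 start. The TATA box (TATAAA), the AP-1 site (TGANTCA), the antioxidant response element core (TGACNNNGC), the heat shock element (GAANNTTC) and the E-box (CACGTG) were in none of these windows. These motifs were in 10.72%, 6.573%, 10.91%, 5.781% and 6.345% of all promoters, respectively. A match of letters does not show binding, and its absence says nothing of a factor.

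Total counts were 17635438 to 19368343 per library, and levels are given as CPM, counts scaled to the size of the library. Of 10 plasma cell markers, 9 had a median of at least 1 CPM, and SDC1 had 371.3 to 925 CPM. One MM1R library given Fer-1 and RSL3, that of passage 6, stood apart. Over 13 genes at least 8-fold higher in the MM1S libraries than in the other 8 MM1R libraries, its median level stood 49.3% of the way from the mean MM1R to the mean MM1S level. None of the other 8 MM1R libraries stood above 0%, but they were used in choosing these genes, which kept them low. The glucocorticoid receptor gene NR3C1 was at 50.2 CPM in it, at 13.8 to 22.3 CPM in the other MM1R libraries and at 89.9 to 391.8 CPM in the MM1S libraries, so that its values may not be those of MM1R cells alone, which was not tested. Fitted values of the 5 genes that use this library are given with and without it. One MM1S library given RSL3, that of passage 16 (replicate 1), also stood apart, with EZR, which links the membrane to actin, at 1436 CPM beside 177.03 to 211.3 CPM in the other two. Labels do not say whether passages were cultured on separate days, so the errors cover the spread between passages as sampled.

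SPRY1 fell to about the same level in both lines. In MM1R cells, it was at 18.8, 14.0 and 11.01 CPM in the untreated libraries of passages 4, 6 and 7, at 6.56, 6.55 and 2.11 CPM after RSL3, and at 7.03, 5.83 and 3.44 CPM after Fer-1 and RSL3. In MM1S cells, it was at 25.7, 16.4 and 12.8 CPM in the untreated libraries of passages 16, 22 and 23, at 3.68, 5.91 and 5.12 CPM after RSL3, and at 6.74, 5.74 and 3.41 CPM after Fer-1 and RSL3. Every library given RSL3, with or without Fer-1, lay below every untreated library of its line, and the libraries with and without Fer-1 overlapped. By the choice, all 5 genes had RSL3 libraries below the untreated ones, as had 12.3% of all genes tested in each line. The log2 fold change with RSL3 was -1.52 ± 0.39 (SE, n = 3 per group) in MM1R cells and -1.89 ± 0.40 in MM1S cells. SPRY1 had the largest mean fall of the 5 genes and also the largest SE. In bulk RNA, less RNA per cell and fewer cells that carry it cannot be told apart, for this gene or the others.

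FRMD6 varied more between the untreated passages of MM1R cells than the other 4 genes did. Its levels there were 52.5, 46.4 and 26.0 CPM untreated, 17.9, 18.5 and 14.0 CPM after RSL3, and 16.9, 24.1 and 15.4 CPM after Fer-1 and RSL3. In MM1S cells, they were 74.1, 54.9 and 48.6 CPM untreated, 16.04, 18.6 and 21.9 CPM after RSL3, and 17.4, 18.8 and 18.4 CPM after Fer-1 and RSL3. The highest treated MM1R library, at 24.1 CPM, was the passage 6 library that stood apart, and it still lay below the lowest untreated library. The log2 fold change with RSL3 was -1.31 ± 0.24 in MM1R and -1.65 ± 0.24 in MM1S cells.

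SOX2 was the most abundant of the 5 genes per length of transcript. It was at 76.9, 64.6 and 53.9 CPM in untreated MM1R cells, at 27.8, 34.5 and 24.0 CPM after RSL3, and at 27.9, 25.9 and 21.9 CPM after Fer-1 and RSL3. In MM1S cells, it was at 130.4, 55.1 and 50.5 CPM untreated, at 26.0, 24.5 and 21.5 CPM after RSL3, and at 21.2, 17.8 and 15.0 CPM after Fer-1 and RSL3. The untreated library of MM1S passage 16 stood far above the other two, and in MM1S cells all 3 libraries with Fer-1 lay below all 3 with RSL3 alone, as in 4.17% of all genes tested. The log2 fold change with RSL3 was -1.18 ± 0.28 in MM1R and -1.71 ± 0.28 in MM1S cells, and without the passage 16 untreated library the MM1S value was -1.14.

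POM121L1P was the gene with the fewest counts, 26 to 138 per library. In MM1R cells, it was at 6.50, 5.34 and 7.24 CPM untreated, at 1.40, 3.20 and 2.85 CPM after RSL3, and at 2.28, 2.60 and 2.84 CPM after Fer-1 and RSL3. In MM1S cells, it was at 7.15, 5.90 and 5.12 CPM untreated, at 2.50, 3.36 and 2.35 CPM after RSL3, and at 2.64, 3.06 and 3.15 CPM after Fer-1 and RSL3. The untreated libraries stood apart from all treated ones in both lines. The log2 fold change with RSL3 was -1.36 ± 0.26 in MM1R and -1.14 ± 0.26 in MM1S cells. Reads of this pseudogene may be shared with its relatives, and its exon overlaps an unnamed long noncoding RNA on the same strand, so its counts are uncertain.

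LRRC14B had the tightest untreated levels. It was at 37.6, 31.6 and 34.9 CPM in untreated MM1R cells, at 15.2, 17.5 and 12.6 CPM after RSL3, and at 12.9, 14.3 and 13.4 CPM after Fer-1 and RSL3. In MM1S cells, it was at 29.7, 27.0 and 28.4 CPM untreated, at 5.72, 15.8 and 16.9 CPM after RSL3, and at 7.001, 10.4 and 10.7 CPM after Fer-1 and RSL3. The low MM1S value after RSL3, 5.72 CPM, came from passage 16, the library with the lowest TMM factor (0.864), and the passage 16 library with Fer-1 was also the lowest of its group. The log2 fold change with RSL3 was -1.20 ± 0.27 in MM1R and -1.14 ± 0.27 in MM1S cells, and without the passage 16 RSL3 library the MM1S value was -0.79, under the fold required. Without that library, the MM1S falls of the other 4 genes were -1.08 (POM121L1P) to -1.77 (SOX2). Part of an exon of LRRC14B is shared with an unnamed long noncoding RNA on the same strand.

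**Figure D1:**
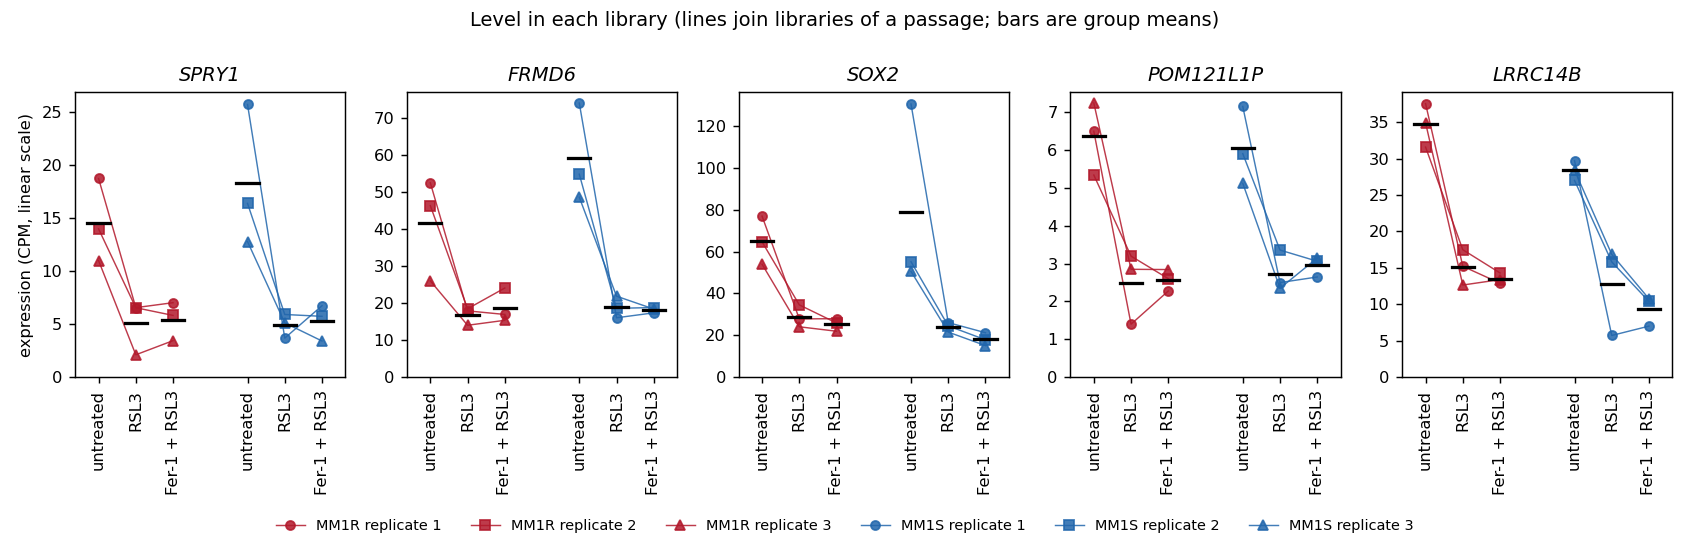
Expression of the 5 genes (CPM on a linear axis from 0) in each of the 18 libraries, by line and treatment. Points are libraries, with circles, squares and triangles for replicates 1 to 3, lines join libraries of a passage, and black bars are group means. The RSL3 and the Fer-1 and RSL3 libraries lie below all untreated libraries of their line for every gene, and SOX2 in untreated MM1S passage 16 is at 130.4 CPM.

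Per kilobase of exon, the untreated levels spanned from SOX2 down to POM121L1P. SOX2 was at 25.9 ± 4.58 CPM per kb (SD, n = 3) in MM1R and 31.3 ± 17.9 in MM1S cells. LRRC14B followed with 13.5 ± 1.17 and 11.04 ± 0.531, and FRMD6 with 4.42 ± 1.47 and 6.29 ± 1.41. SPRY1, at 3.68 ± 0.986 and 4.62 ± 1.69, and POM121L1P, at 3.46 ± 0.523 and 3.30 ± 0.558, were within the spread of their replicates of each other in MM1R cells. The exon lengths are those of the annotation used here, which may differ from the one used for counting.

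Across passages, all 5 genes kept a part of their untreated level after RSL3, and a similar part when Fer-1 was given before it. Relative to the untreated library of the same passage, RSL3 left 14.3% to 59.9% of the level (median 39.9%) over the 30 pairs of gene and passage. With Fer-1 before RSL3, 16.3% to 61.4% was left (median 37.2%). The library that stood apart, passage 6 of MM1R cells with Fer-1, had 40.0% (SOX2) to 52.0% (FRMD6). The lowest share with RSL3 was that of SPRY1 in MM1S passage 16, and the lowest with Fer-1 that of SOX2 in the same passage. The log2 difference between Fer-1 and RSL3 and RSL3 alone was below 0 in 17 of the 30 pairs and above 0 in 13, with a median of -0.06.

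**Figure D2:**
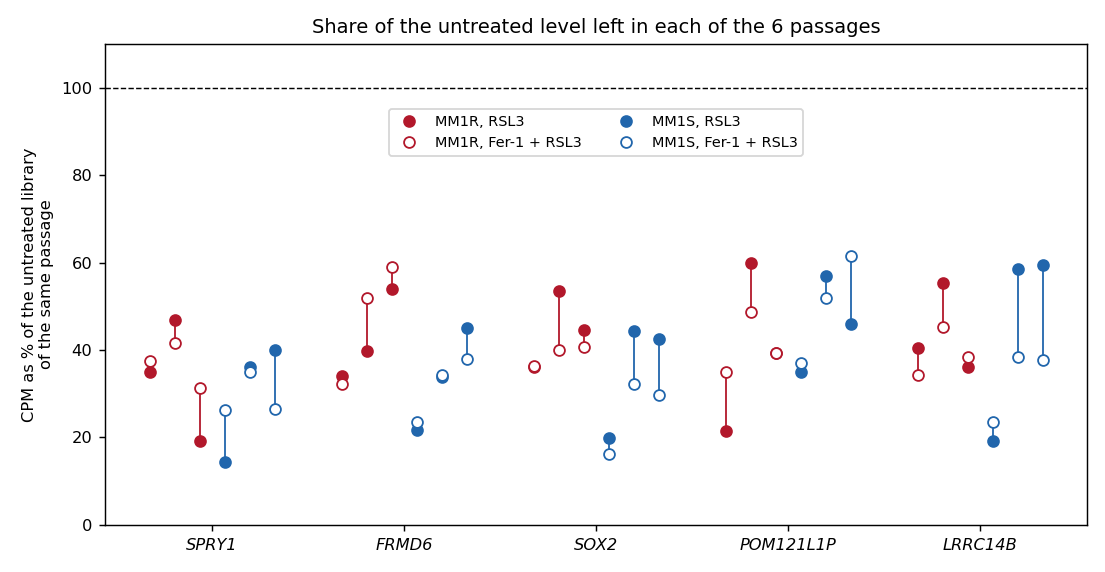
CPM left after treatment, as a percentage of the untreated library of the same passage, for the 5 genes in the 3 MM1R (red) and 3 MM1S (blue) passages. Filled circles are RSL3, open circles are Fer-1 and RSL3, and the dashed line marks the untreated level. All 60 circles lie below it, between 14.3% and 61.4%, and the open circles lie above and below the filled ones.

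The levels with and without Fer-1 before RSL3 were also compared gene by gene. These comparisons share their RSL3 or untreated libraries with the choice of the genes, so they too are described and not tested. In MM1R cells, the log2 difference of Fer-1 and RSL3 from RSL3 alone was 0.16 ± 0.24 for FRMD6, 0.10 ± 0.40 for SPRY1, 0.05 ± 0.27 for POM121L1P, -0.16 ± 0.27 for LRRC14B and -0.19 ± 0.28 for SOX2. In MM1S cells, it was 0.11 ± 0.26 for POM121L1P, 0.11 ± 0.40 for SPRY1, -0.05 ± 0.24 for FRMD6, -0.41 ± 0.28 for SOX2 and -0.46 ± 0.27 for LRRC14B. Each of these differences was under 2 SE from 0. With the passage as a block, SOX2 in MM1S cells was at -0.43 ± 0.19 (FDR = 0.429 in edgeR). Without the passage 16 RSL3 library, LRRC14B in MM1S cells was at -0.80 ± 0.17 (FDR = 0.680 in edgeR). Both lay more than 2 SE below 0 without passing an FDR of 0.05, and no further fall with Fer-1 is read from them. Without the passage 6 library that stood apart, the MM1R values were -0.06 for FRMD6, 0.05 for SPRY1, 0.04 for POM121L1P, -0.20 for LRRC14B and -0.21 for SOX2, so that FRMD6 changed sign. Against untreated cells, the log2 fold changes of Fer-1 and RSL3 ran from -1.15 ± 0.23 (FRMD6) to -1.42 ± 0.39 (SPRY1) in MM1R cells (-1.31 to -1.48 without that library, with FRMD6 at -1.37) and from -1.04 ± 0.26 (POM121L1P) to -2.13 ± 0.29 (SOX2) in MM1S cells. Every Fer-1 and RSL3 library lay below every untreated library for 5 of 5 genes in each line. That held for 14.1% of all genes tested in MM1R and 13.6% in MM1S cells, and since the untreated libraries also chose the genes, nothing is read from the count.

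Whether the level after Fer-1 and RSL3 lay nearer to that of RSL3 or of untreated cells was tested against the midpoint of the log2 levels of those groups. A negative value lies nearer to RSL3 and a positive value nearer to untreated cells. The contrast uses the same untreated and RSL3 libraries as the choice, and is unrelated to the size of the fall only where both groups vary alike. They did not for SOX2 in MM1S cells, where the coefficient of variation was 57.0% in untreated and 9.57% in RSL3 libraries. Nor did they for LRRC14B in MM1S cells (4.81% and 48.1%). In MM1R cells, the groups also differed for POM121L1P (15.1% and 38.4%), SPRY1 (26.8% and 50.6%) and FRMD6 (33.3% and 14.5%). Without the passage 16 untreated library, the MM1S fall of SOX2 became -1.14 and its midpoint value -0.98 (FDR = 0.0232 in edgeR). The p-values below are therefore to be read with the choice in mind, and the shared sign of the 5 genes is a description. All 5 genes were below the midpoint in both lines, with a median of -0.66 in MM1R and -0.88 in MM1S cells. Over all genes tested, 48.5% and 51.6% were below it, with medians of 0.01 and -0.01. In the edgeR test, adjusted over all genes, 1 of the 10 values passed an FDR under 0.05, that of SOX2 in MM1S cells (-1.27 ± 0.25, FDR = 0.0334). Of all genes, 0.49% were below the midpoint by this test in MM1R and 0.203% in MM1S cells.

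In MM1R cells, none of the 5 passed, although 4 of 5 had an unadjusted p under 0.05 in edgeR, beside 2392 of all 14281 genes (16.7%). LRRC14B was at -0.76 ± 0.24 (FDR = 0.106), SOX2 at -0.78 ± 0.25 (FDR = 0.1105) and POM121L1P at -0.63 ± 0.23 (FDR = 0.173). FRMD6 was at -0.49 ± 0.21 (FDR = 0.231) and SPRY1 at -0.66 ± 0.35 (FDR = 0.349). Without the passage 6 library that stood apart, the values were -0.80 for LRRC14B, -0.80 for SOX2, -0.63 for POM121L1P, -0.71 for FRMD6 and -0.71 for SPRY1, and again none passed. With the passage as a block, edgeR gave an FDR of 0.0134 for SOX2 and 0.0323 for LRRC14B, and with DESeq2 the same genes passed, at 0.0260 and 0.0293.

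In MM1S cells, LRRC14B was at -1.03 ± 0.24 (FDR = 0.0677 in edgeR) and FRMD6 at -0.88 ± 0.21 (FDR = 0.0700). Both passed with the passage as a block, with FDR values of 0.0183 and 0.0122 in edgeR, as did SOX2 at 0.00254. SPRY1 was at -0.84 ± 0.35 (FDR = 0.351) and POM121L1P at -0.46 ± 0.23 (FDR = 0.468), and neither passed with the block. The SOX2 call rested on the libraries in the fit. It was lost without any 1 of the 3 MM1S Fer-1 and RSL3 libraries (FDR = 0.126 to 0.142), without MM1S RSL3 replicate 2 (0.0634) and without MM1R untreated replicate 2 (0.0507), with values of -1.16 to -1.40. Without MM1S RSL3 replicate 1, the lowest of its group for LRRC14B, LRRC14B passed in both lines (FDR = 0.00557 in MM1R and 0.000316 in MM1S cells) and FRMD6 in MM1S cells (0.0327). FRMD6 in MM1S cells also passed without MM1R untreated replicate 3 (0.0332), and SOX2 in MM1R cells without MM1S untreated replicate 1 (0.0181).

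**Figure D3:**
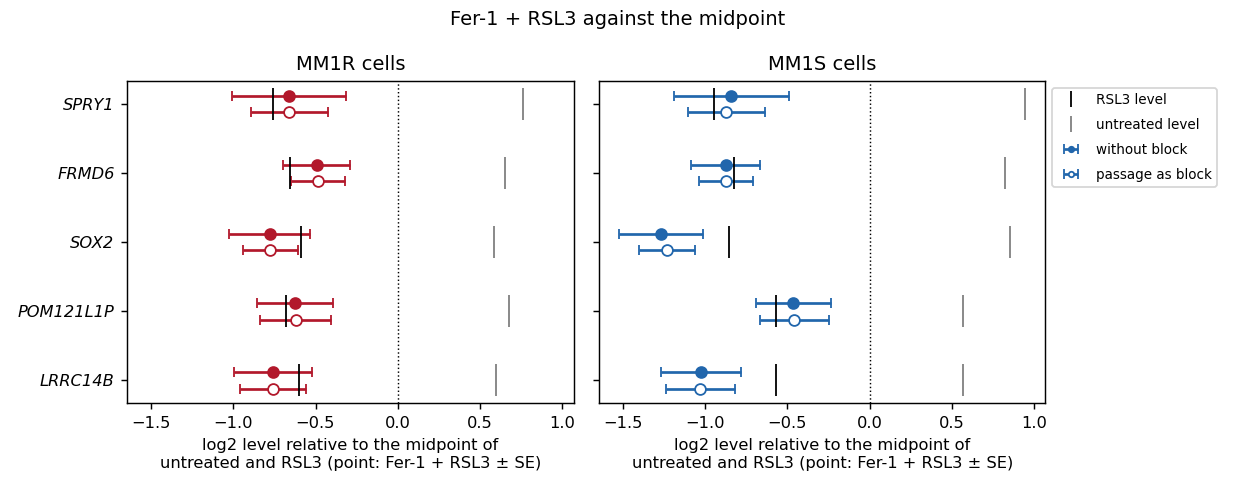
Level after Fer-1 and RSL3 relative to the midpoint of the untreated and RSL3 log2 levels (horizontal axis, log2), for the 5 genes in each line. Points with bars are the estimate ± SE without (filled) and with (open) the passage as a block, black ticks are the RSL3 level and grey ticks the untreated level. All points lie left of 0, nearer to the black than to the grey ticks, from -0.46 for POM121L1P to -1.27 for SOX2, both in MM1S cells.

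Genes that RSL3 raised in both lines were on the other side. Of these 96 genes, 77 (80.2%) were above the midpoint in MM1R and 79 (82.3%) in MM1S cells, which is also nearer to the RSL3 level, with median values of 0.71 and 0.62. The other 4 genes lowered in both lines were below the midpoint too, with a median of -0.62 in MM1R and -0.65 in MM1S cells. By sign alone, most genes that RSL3 moved in both lines thus lay nearer to RSL3. Of the 96 raised genes, edgeR called 29 above the midpoint in MM1R and 15 in MM1S cells. Of the other 4 lowered genes, it called 2 and 1 below it. These genes too were picked by the untreated and RSL3 libraries that make the midpoint, so their signs are a description. The difference between the lines in this contrast was -0.16 to 0.49 for the 5 genes, and -0.17 to 0.47 without the MM1R passage 6 library that stood apart, with FRMD6 at 0.38 and 0.16. No gene passed for that difference in edgeR, with an unadjusted p under 0.05 for 222 of 14281 genes and for 0 of the 5. No gene passed with DESeq2 or limma, and 3 passed with the passage as a block.

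The mean level differed by less than 2-fold between MM1R and MM1S cells for all 5 genes. In untreated cells, FRMD6 was at 41.6 ± 13.9 CPM (SD, n = 3) in MM1R and 59.2 ± 13.3 CPM in MM1S cells. Averaged over the 3 treatments, the log2 difference of MM1R from MM1S cells was 0.35 ± 0.15 for LRRC14B (95% interval 0.05 to 0.65, FDR = 0.0985 in edgeR). It was 0.16 ± 0.16 for SOX2 (-0.15 to 0.47), -0.08 ± 0.23 for SPRY1 (-0.52 to 0.36), -0.09 ± 0.15 for POM121L1P (-0.38 to 0.20) and -0.21 ± 0.13 for FRMD6 (-0.47 to 0.05). Without the passage 6 library that stood apart, these values were 0.33, 0.15, -0.10, -0.09 and -0.28, in the same order. None of the 5 passed the FDR and the 2-fold change, beside 6.71% of all genes, and only LRRC14B had an unadjusted p under 0.05 in edgeR. None passed with DESeq2 either. In each gene, differences of 1 log2 unit lay outside the 95% interval.

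The relatives and pathway partners of each gene show how far the falls were shared. The lists were put together with results of these data known, so their counts describe and support nothing. Over all genes tested, the median log2 fold change with RSL3 was 0.000226 in MM1R and 0.0022 in MM1S cells, and 1.2% and 1.61% of them were called in either direction by edgeR. An unadjusted p under 0.05 was found for 18.5% and 19.5% of all genes, and 49.9% and 49.7% were below 0. Of the 7 Sprouty and SPRED genes, 5 were tested and SPRY1 alone was called in edgeR. SPRED1, another inhibitor of ERK signalling, was at -0.88 ± 0.24 in MM1R (FDR = 0.0579 in edgeR) and -0.95 ± 0.24 in MM1S cells (FDR = 0.0401), under the fold required. SPRY4 was at 0.04 ± 0.49 and 1.59 ± 0.51 (FDR = 0.0886 in edgeR in MM1S cells, where DESeq2 called it), and SPRY2 reached at most 20 counts. In MM1S cells after RSL3, SPRY4 was at 4.21 CPM in the passage 16 library and at 1.39 and 1.23 CPM in the others.

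Of 14 tested transcripts that report ERK output, 0 were called by edgeR in either line, 4 in MM1R and 2 in MM1S cells having an unadjusted p under 0.05, with medians of -0.09 in MM1R and -0.03 in MM1S cells. DUSP5, a phosphatase that acts on ERK, was at 1.67 ± 0.46 and 1.48 ± 0.46 (FDR = 0.0580 and 0.0830 in edgeR), and DESeq2 called it in MM1R cells. In MM1S cells it was at 849 ± 843 CPM (SD, n = 3) after RSL3, highest in the passage 16 library. DUSP4, which acts on the same kinase, was at 0.91 ± 0.51 and 0.95 ± 0.51. Its MM1S value was carried by the passage 16 RSL3 library, at 885.5 CPM. In MM1S passages 22 and 23, it was at 150.7 and 141.9 CPM after RSL3, below the 183.1 and 183.7 CPM of the untreated libraries. DUSP6, a phosphatase of the same family, was at -0.75 ± 0.30 and -0.63 ± 0.31.

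Around FRMD6, the Hippo pathway list held 24 tested genes, of which FRMD6 alone was called in either line. The other 23 had a median of -0.09 in MM1R and -0.23 in MM1S cells, where 20 of 23 were below 0. None of the 23 was called by edgeR or DESeq2, and 4 in MM1R and 6 in MM1S cells had an unadjusted p under 0.05. TAOK2, a kinase that activates the Hippo kinases, was at -0.60 ± 0.15 and -0.62 ± 0.15 (FDR = 0.0370 and 0.0287 in edgeR), under the fold required. NF2, the FERM domain protein at the head of the pathway, was at -0.57 ± 0.19 and -0.34 ± 0.19. Of 10 tested targets of YAP and TAZ, GADD45A was called higher in MM1S cells (1.40 ± 0.17, FDR = 0.000739 in edgeR) and was at 0.89 ± 0.16 in MM1R cells. None of the 10 was called lower, and 4 were below 0 in each line. CCN1, the classical target, was at 1.65 ± 0.88 and 3.42 ± 0.97 on 3 to 135 counts per library, and DESeq2 called it in MM1S cells, where it was at 8.87 CPM in the passage 16 RSL3 library and at 0.59 and 0.85 CPM in the others. Among 25 other FERM domain genes, edgeR called 0, with an unadjusted p under 0.05 for 4 in MM1R and 6 in MM1S cells. DESeq2 called EZR higher in MM1S cells, at 608 ± 717 CPM (SD, n = 3) after RSL3, a mean carried by the passage 16 library.

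Among the SOX genes that could be tested, SOX2 alone passed both thresholds. Of 21 genes in the list, SOX2-OT included, 7 were tested, and the other 6 were called neither by edgeR nor by DESeq2, with an unadjusted p under 0.05 for 2 in MM1R cells and 1 in MM1S cells. SOX12 was at -0.86 ± 0.22 and -0.90 ± 0.22 (FDR = 0.0383 and 0.0306 in edgeR), also under the fold required. The long noncoding RNA SOX2-OT, which overlaps SOX2 on the same strand, had 1 to 11 counts per library and was not tested. Of the factors that act with SOX2 in pluripotent cells, NANOG had 0 counts in all libraries and POU5F1 at most 4. KLF4 was at 1.59 ± 0.54 and 1.85 ± 0.53 and MYCN at -1.39 ± 0.52 and -1.19 ± 0.43, and neither passed in edgeR, while DESeq2 called KLF4 in both lines. It also called KLF5, at 1.53 ± 0.50 and 1.57 ± 0.49 in edgeR, in both. In MM1S cells both were highest in the passage 16 RSL3 library, KLF4 at 13.3 CPM and KLF5 at 26.4 CPM, beside at most 3.41 and 6.46 CPM in the others. Of 7 neural progenitor markers, NES and OLIG2 had a median of at least 1 CPM, and PAX6, SOX1, MSI1, FABP7 and GFAP had at most 2 counts. The sum of this list was higher in the MM1R libraries (26.7 to 63.8 CPM) than in the MM1S libraries (5.23 to 13.5 CPM), and SOX2 did not pass between the lines. The MM1R sums were mostly NES, which reached 63.1 CPM, while OLIG2 reached at most 12.2 CPM in any library. The sum therefore does not show that the list as a whole was higher in MM1R cells.

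POM121L1P had 1 relative with a fall of like size. POM121L10P, another pseudogene of the family, was at -1.17 ± 0.38 in MM1R and -1.40 ± 0.40 in MM1S cells on 6 to 38 counts per library, and did not pass (FDR = 0.107 and 0.0605 in edgeR), while DESeq2 called it in MM1S cells. The coding genes POM121 and POM121C were at -0.22 ± 0.15 and -0.29 ± 0.17 in MM1R and at -0.17 ± 0.15 and -0.22 ± 0.17 in MM1S cells. The 29 nuclear pore genes had 0 calls in edgeR and in DESeq2, an unadjusted p under 0.05 for 0 in MM1R and 2 in MM1S cells, and medians of -0.08 and -0.17. Next to LRRC14B, its relative LRRC14 was at -0.56 ± 0.16 and -0.29 ± 0.16 and was not called, and PRAME had at most 1 count.

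**Figure D4:**
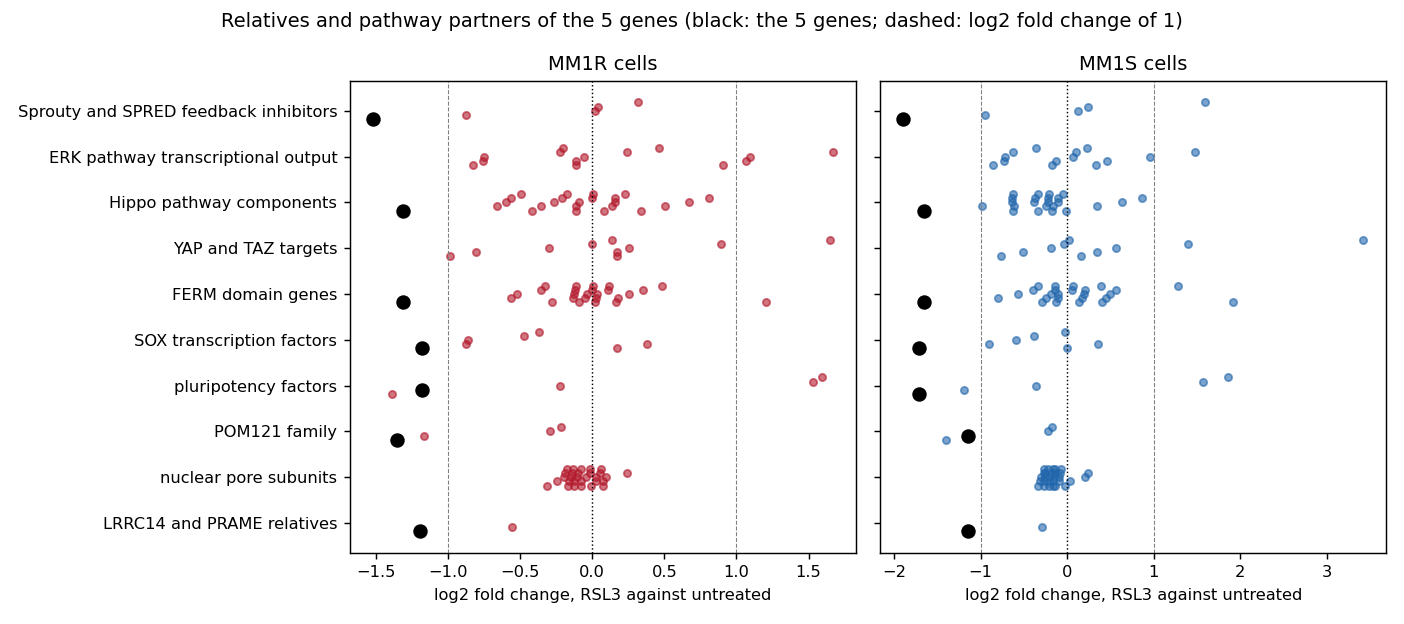
Log2 fold change of RSL3 against untreated cells (horizontal axis) for the tested genes of the 10 lists (rows) in each line. Black points are the 5 genes, coloured points their relatives and pathway partners, and dashed lines mark a log2 fold change of 1 in size. GADD45A, at 1.40 in MM1S cells, is the 1 coloured point that passed both thresholds in edgeR.

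Genes next to the 5 on the chromosome were not called in edgeR. CCDC127, which ends 534 bp from LRRC14B on the other strand, was at 0.11 ± 0.11 and 0.05 ± 0.11, and PLEKHG4B, 1523 bp away on the other side, had 6 to 21 counts. SPATA5, 77362 bp from SPRY1, was at 0.06 ± 0.19 and -0.10 ± 0.19. GNG2, 95468 bp from FRMD6, was at 1.13 ± 0.33 in MM1R (FDR = 0.0701 in edgeR) and 0.44 ± 0.29 in MM1S cells. The antisense RNA FRMD6-AS2 had at most 3 counts, and its exons do not overlap those of FRMD6. The strand setting of the counting is not known, so whether reads from the other strand entered the FRMD6 counts was not tested.

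The 5 genes varied together over the libraries. With the mean of each line subtracted, Pearson's r of log2 CPM over 18 libraries was 0.737 (SPRY1 and POM121L1P) to 0.924 (FRMD6 and SOX2). The genes were chosen to be high in the untreated libraries, which enters this likeness. Other genes followed the pattern more closely. The gene most like SPRY1 was LOC107985502 (r = 0.937), followed by RUNDC1 and ELMO2. The most like FRMD6 was DDX17 (r = 0.958), an RNA helicase gene, followed by SLC39A10 and FBH1. The most like SOX2 was NFE2L3 (r = 0.959), followed by ARL3 and CCR2. The most like POM121L1P was USF1 (r = 0.962), followed by SH3BP1 and CFAP298, and the most like LRRC14B was ARHGEF2 (r = 0.978), followed by XYLT2 and EMILIN1.

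Of these 15 genes, CCR2, a chemokine receptor gene, and SLC39A10, a zinc transporter gene, were called lower with RSL3, both in MM1S cells. CCR2 was at -1.11 in MM1R and -1.65 in MM1S cells, and SLC39A10 at -0.98 and -1.16. The likeness depended in part on the measure: by Spearman's rho, DDX17 ranked 155 for FRMD6 and NFE2L3 103 for SOX2. ARHGEF2 ranked 2 for LRRC14B and RUNDC1 ranked 1 for SPRY1 by the same measure. Without the library that stood apart, all 15 genes ranked between 1 and 6. The libraries of a passage share their culture, so the 18 points are not independent.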

How the data were processed

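RNA of untreated, RSL3-treated and Fer-1 pre-treated MM1R and MM1S cells was isolated with RNeasy columns by the authors and sequenced from both ends (50 bp) on the BGISEQ-500 platform. Per the submitters' notes, FastQC 0.11.5, STAR 2.7.3a, hg19 and DESeq2 were used. The counting tool, annotation and strand setting are not given in the sources used here. The authors deposited raw read counts for 43735 genes and a table of normalized signal, in which 29553 genes have their counts divided by size factors of 0.834 to 1.08.

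Counts were fitted with edgeR 4.0.16 (R 4.3.3) as 6 group means over 18 libraries, with TMM scaling, filterByExpr (minimum count 10; 14281 genes kept) and the quasi-likelihood test with 12 residual degrees of freedom. P-values were adjusted by Benjamini-Hochberg over all genes. A call needed an FDR under 0.05 together with a 2-fold change, and for the midpoint contrast an FDR under 0.05 alone. CPM used TMM library sizes, and correlations used log2 CPM (prior count 2). The 95% intervals are the estimate ± a normal quantile times its SE. The genes and lists were chosen with earlier results of these data known. The genes named beside the 5 are the nearest tested neighbours, the 3 with the highest correlation, and members of the lists.

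Libraries of a passage were paired by their labels. Deviations from group means correlated between libraries of a passage with a median of 0.250 in MM1R cells (0.0338 to 0.516) and 0.416 in MM1S cells (0.216 to 0.681), 9 pairs each. Alternatives were DESeq2 1.42.0, limma 3.58.1 on log2(normalized + 1), RLE and upper-quartile scaling, no filter, a minimum count of 50, the passage as a block, 1 line in the fit, and leaving out each library. The fit was tested on simulated data: of 200 genes changed 2-fold, 80% were recovered for the midpoint contrast in MM1R and 77% in MM1S cells, among 14050 and 14079 genes.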

Additional observations from a re-analysis of the deposited data

How the results depend on the processing

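The value against the midpoint stayed negative in 130 of 130 refits of the 5 genes in each line, and the sign of the fall with RSL3 was set by the choice. The refits, 26 for each gene, share most of their libraries, and leaving out a library of the other line changed the value little. Their count is therefore not a count of independent results. The calls that chose the genes changed with the libraries. SPRY1 in MM1R cells (FDR = 0.0427 in edgeR) was called in 9 of 18 fits without 1 library and lost with upper-quartile scaling. It was lost without any 1 of the MM1R untreated or RSL3 libraries. Of the same 18 fits, SOX2 and LRRC14B in MM1R cells were called in 13. In MM1S cells, LRRC14B was called in 14, POM121L1P in 15 and SPRY1 in 16. The remaining calls held in all 18. These fits include those without a library of the other line. With only that line in the fit, the MM1S calls of SPRY1, SOX2, POM121L1P and LRRC14B were lost. For members called below the midpoint, the count was 0 in MM1R and 1 in MM1S cells. It became 2 and 3 with DESeq2, 4 and 4 with no filter on low counts and 2 and 3 with the passage as a replicate block. With only that line in the fit it became 2 and 0, and without 1 library it ranged from 0 to 1 and from 0 to 3. No member was called between the lines under any alternative, where a call also needed a 2-fold change. Without 1 library, the FDR in edgeR for that difference went down to 0.0149 for SOX2 and 0.0458 for LRRC14B.

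Over all genes, the calls below or above the midpoint numbered 275 in MM1R and 85 in MM1S cells. They were 718 and 302 with DESeq2, 657 and 430 with no filter, 1571 and 580 with passage blocks, 3 in MM1S cells with only that line in the fit, and 26 to 633 and 3 to 254 without 1 library. Calls for RSL3 against untreated cells numbered 171 in MM1R and 230 in MM1S cells. They were 273 with DESeq2 in MM1R cells, 431 and 517 with no filter, 410 and 387 with passage blocks, 278 and 21 with only that line in the fit, and 52 to 341 and 52 to 469 without 1 library. Calls between the lines numbered 958, 1487 with no filter and 461 with a minimum count of 50.

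Values near 0 changed sign. Between the lines, with untreated libraries only, SOX2 was at -0.27 and POM121L1P at 0.070, and without 1 library SPRY1 ranged from -0.16 to 0.055 and POM121L1P from -0.17 to 0.0049. For the difference between the lines in the fall with RSL3, LRRC14B (-0.06) was at 0.089 with limma and 0.032 with the passage as a block. Without 1 library, this difference ranged from -0.40 to 0.19 for LRRC14B, from -0.44 to 0.075 for POM121L1P and from -0.039 to 0.77 for SOX2. The difference in the midpoint contrast ranged from -0.060 to 0.41 for SPRY1. The differences between the lines in the fall and in the midpoint contrast were added after seeing the data. Under each scaling, the median log2 value of all genes lay within 0.0258 of 0. The cause of the changed counts was not tested. With 3 libraries per group, POM121L1P rests on as few as 26 counts, and SPRY1 on 37.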

Other observations

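The other 4 genes lowered by RSL3 in both lines were HRH2, ZNF703, ARSI and TNFAIP3. TNFAIP3, a negative regulator of NF-κB signalling, fell from 334.6 ± 106 CPM (SD, n = 3) untreated to 143.7 ± 28.9 CPM after RSL3 in MM1R cells, and was at 212.1 ± 30.7 CPM after Fer-1 and RSL3. It was the 1 gene of the 9 close to the midpoint in MM1R cells, at -0.05, and was at -0.45 in MM1S cells. ZNF703, a zinc finger gene, was furthest below the midpoint in MM1R cells, at -1.13, with 19.6 ± 4.39 CPM untreated, 8.87 ± 0.286 CPM after RSL3 and 6.02 ± 0.784 CPM after Fer-1 and RSL3. COL1A1, a stromal collagen gene, reached 19.5 CPM in the MM1S passage 16 library given RSL3, which stood apart, beside a median of 1.71 CPM over the 18 libraries.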
